A study of Homo sapiens with 9 samples.

Results

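The genes described here encode the enzymes that switch the pyruvate dehydrogenase complex off and on: the kinases PDK1, PDK2, PDK3 and PDK4 and the catalytic subunits of the phosphatases, PDP1 and PDP2. They were found as the probe sets annotated to exactly 1 of these 6 gene symbols, where a probe set is the group of short oligonucleotides that reads 1 transcript region on the array. The rule gave 15 of the 54675 probe sets on the array, which cover 5 of the 6 genes (3 for PDK1, 2 for PDK2, 5 for PDK3, 3 for PDK4 and 2 for PDP1). The probe sets of a gene are lettered by falling mean value over all arrays, so that PDK3-a is the brightest of PDK3, and the array's own probe set names stand in the plots. No probe set was found for PDP2, which is not analysed here. PDK1 is here the pyruvate dehydrogenase kinase, and not PDPK1, the kinase of the PI3K pathway that is also nicknamed PDK1.

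The study measured total RNA of the human small cell lung cancer line H69 on 9 arrays. Each of 3 groups has 3 arrays. For 24 h the cells, kept in complete medium, were given PIK75 (100 nM), TGX221 (1 mM per the labels) or, as the control, only the solvent DMSO. PIK75 and TGX221 inhibit phosphoinositide 3-kinases (PI3K), the lipid kinases that relay growth factor signals, and are known to prefer the isoforms encoded by PIK3CA and PIK3CB. The doses differ, no source used here allowed a check of the millimolar unit given for TGX221, and the treatment label of the control samples reads none. Replicates are named by the numbers in the labels, which do not say whether they came from separate cultures, so p-values here measure array-to-array spread only, and that spread may be technical. Each value is on a log2 scale made by the authors with RMA, so a difference of 1 is a doubling.

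The pyruvate dehydrogenase complex sits in the mitochondrion and turns pyruvate, the end product of glycolysis, into acetyl-CoA for the citric acid cycle. The PDK enzymes phosphorylate its decarboxylase subunit and shut it off, which steers pyruvate towards lactate, and the PDP phosphatases remove the phosphate and turn it on again. PDK1 and PDK3 are textbook targets of HIF1, the transcription factor of low oxygen, while PDK4 is raised in fasting through FOXO and PPAR factors. PDP1 is the phosphatase stimulated by calcium.

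RMA makes arrays alike in distribution, so near-equal medians come from the processing. The array median of 54613 probe sets was 7.26 to 7.27 in controls, 7.27 to 7.29 with TGX221 and 7.31 to 7.33 with PIK75. Arrays of a group correlated at 0.99572 to 0.99824 (Pearson, across probe sets, which are not independent replicates). Of 9 neuroendocrine and epithelial markers 8 could be matched, and their mean values ran from 9.34 (SYP) to 13.3 (EPCAM). The 18 matched markers of blood, stromal, endothelial and liver cells had a median of 6.89 and ran from 5.71 (ALB) to 9.38 (COL1A1), which shows where genes that these cells should lack read on this scale. The sum over these markers ran from 127.56 to 127.99 in controls, from 130.35 to 131.59 under PIK75 and from 127.39 to 128.24 under TGX221, and that of the neuroendocrine markers was 98.0 to 98.2, 95.5 to 95.6 and 98.4 to 98.6. The part of these shifts in the results was not tested. The difference between the 3' and 5' actin probe sets, a sign of RNA quality, was 0.24 to 0.44 in controls, 0.26 to 0.41 with TGX221 and 0.47 to 1.13 with PIK75.

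The promoters of the kinase genes are shown because HIF1 binds a short core, ACGTG or GCGTG. A further reason is that, with PIK75, transcripts of PDK1 and PDK3 fell and those of PDK2 did not on the deposited scaling. Windows of 300 bases (250 before to 50 after each RefSeq transcript start, GRCh38.p14) were given for 5 of the 6 genes, all but PDP1. The 250 bases before 1 start of each kinase gene follow, 5′ to 3′ on the gene's own strand, with ACGTG or its reverse complement CACGT in capitals. They lie at chr2:172555840-172556089 (PDK1, plus strand), chr17:50095101-50095350 (PDK2, plus strand), chrX:24465036-24465285 (PDK3, plus strand) and chr7:95596517-95596766 (PDK4, minus strand).
PDK1: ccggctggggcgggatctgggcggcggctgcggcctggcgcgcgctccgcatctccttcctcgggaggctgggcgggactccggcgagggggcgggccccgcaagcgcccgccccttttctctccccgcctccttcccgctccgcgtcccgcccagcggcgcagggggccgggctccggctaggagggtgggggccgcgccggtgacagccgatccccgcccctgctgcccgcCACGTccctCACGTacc
PDK2: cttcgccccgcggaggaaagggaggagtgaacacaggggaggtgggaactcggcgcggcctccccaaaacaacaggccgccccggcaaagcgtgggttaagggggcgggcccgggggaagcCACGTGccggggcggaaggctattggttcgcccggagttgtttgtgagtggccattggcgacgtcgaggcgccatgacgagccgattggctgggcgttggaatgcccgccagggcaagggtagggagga
PDK3: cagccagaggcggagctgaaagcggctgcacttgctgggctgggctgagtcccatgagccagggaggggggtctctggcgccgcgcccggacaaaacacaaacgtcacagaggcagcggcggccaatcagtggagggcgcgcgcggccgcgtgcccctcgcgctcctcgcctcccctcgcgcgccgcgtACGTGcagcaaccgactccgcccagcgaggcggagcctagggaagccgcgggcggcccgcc
PDK4: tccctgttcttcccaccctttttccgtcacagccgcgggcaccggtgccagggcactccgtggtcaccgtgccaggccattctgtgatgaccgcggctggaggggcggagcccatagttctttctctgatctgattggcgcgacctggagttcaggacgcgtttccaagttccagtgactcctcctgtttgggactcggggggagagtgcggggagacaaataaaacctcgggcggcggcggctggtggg
The PDK1 window holds 2 matches on the opposite strand, at bases -17 to -13 and -8 to -4 from the start, and the other PDK1 window holds 0. PDK2 holds 2 overlapping matches in 1 CACGTG, the palindrome that is also an E-box, in 1 of its 3 windows, and PDK3 holds 1 match in its only window. The PDK4 window holds 0. Of all 35116 windows, 21.4% held ACGTG on either strand, and 36.5% held GCGTG, which was found once each in the shown windows of PDK2 and PDK3. The FOXO motif TGTTTAC was in 3.42% of all windows and in 0 of the 8 windows of these genes. The PDP2 window, not shown, holds 3 matches to ACGTG, with a CACGTG among them. Counted by gene over all windows of each, 24.9% of all genes held ACGTG and 40.6% held GCGTG. The cores were thus present in windows of PDK2, PDK1, PDK3 and PDP2 alike. A match is a run of letters and not a measured binding site.

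With PIK75, transcripts of PDK1, PDK3 and PDP1 were lower than in control cells, while PDK2 and PDK4 moved little. By limma with Benjamini-Hochberg adjustment over all probe sets, 8 of the 15 probe sets fell and 3 rose at an adjusted p below 0.05. Over all 54613 probe sets tested, 19.9% were called lower and 30.3% higher, so the share of falls among these probe sets was above the background and the share of rises below it. All 3 PIK75 arrays lay below all 3 controls on 9 of the 15 probe sets, against 21.4% of all probe sets, and above them on 1, against 36.2%. The median log2 difference of the 15 was -0.45, beside 0.08 over all probe sets. The probe sets of 1 gene share their target and are not independent.

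**Figure D1:**
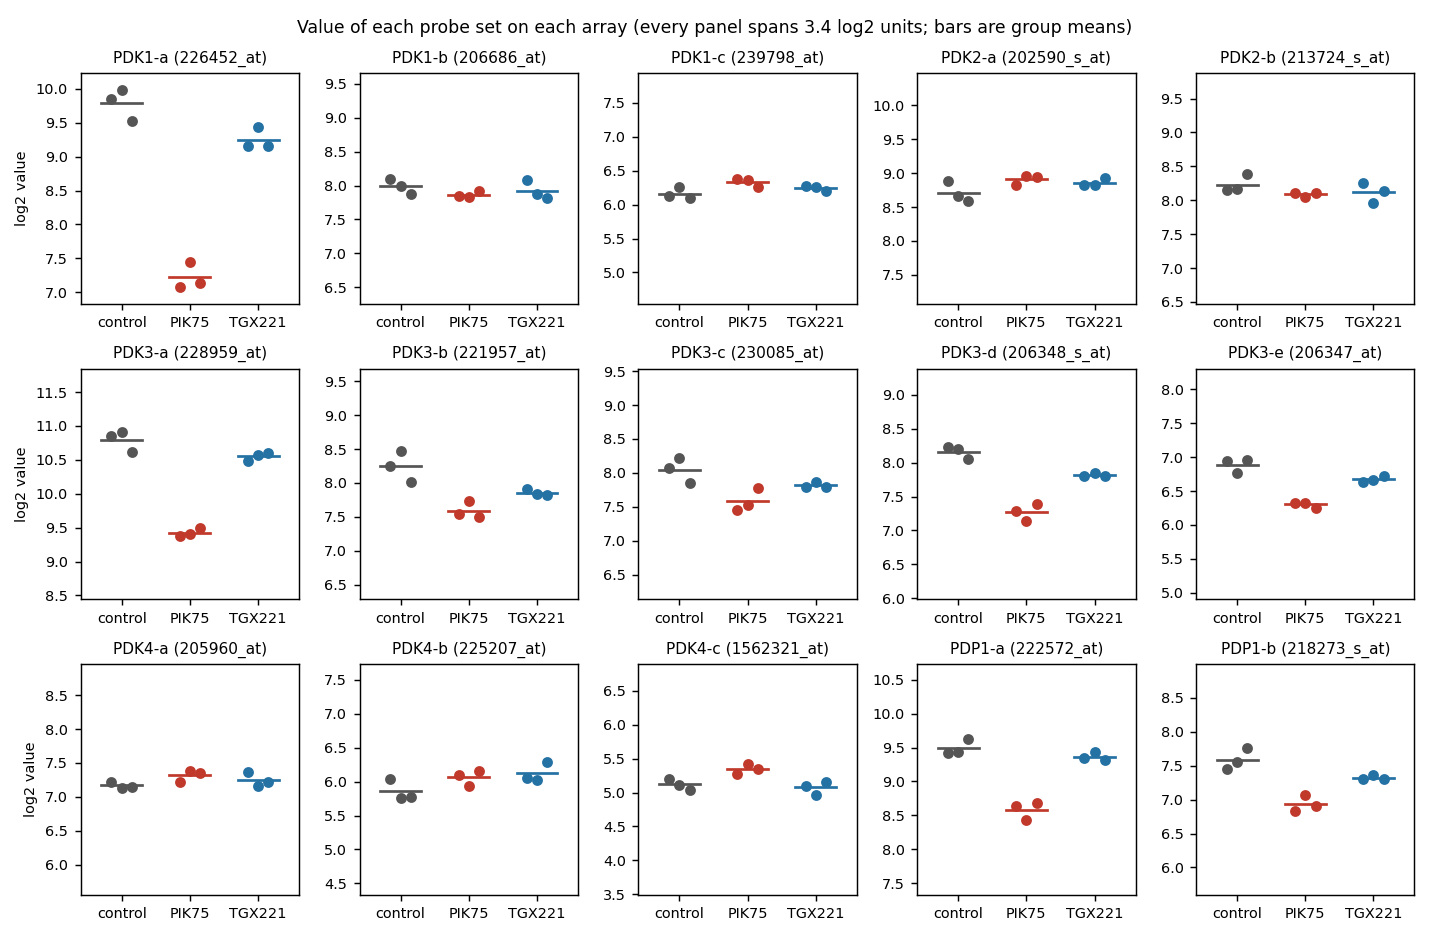
Log2 value of each of the 15 probe sets on each of the 9 arrays, grouped by treatment, with a bar at each group mean and panels of equal span (3.4 log2 units). The PIK75 arrays of PDK1-a lie at 7.08 to 7.44 against 9.53 to 9.98 in controls. Those of all 5 PDK3 probe sets, both PDP1 probe sets and PDK2-b also lie below their controls. Each PDK2 and PDK4 probe set, PDK2-b included, spans less than 0.6 over all arrays.

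PDK1, the kinase able to phosphorylate every regulatory serine of the complex, showed the largest fall of these genes, and only on its brightest probe set. That probe set, PDK1-a, read 9.85, 9.98 and 9.53 on the control arrays (replicates 1, 3 and 5), 7.08, 7.44 and 7.14 with PIK75 (replicates 1, 3 and 5), and 9.16, 9.44 and 9.16 with TGX221 (replicates 2, 3 and 5). The groups did not overlap, with PIK75 far below both others and the TGX221 arrays just below the lowest control, replicate 5. PIK75 lowered it 5.91-fold (log2 -2.56, SE 0.124, limma adjusted p = 2.37e-08), which ranked 3 among the 19775 genes ordered by fall when each is read by its brightest probe set.

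The dimmer probe sets of PDK1 showed no such fall. On PDK1-b the control arrays read 8.09, 7.99 and 7.87 and the PIK75 arrays 7.84, 7.84 and 7.91, which overlap (log2 -0.12, SE 0.0765, limma adjusted p = 0.197). It passed as lower with cyclic loess (-0.24, limma adjusted p = 0.0197) and, at -0.47, when arrays were centred on the hybridization spikes. On the dim PDK1-c the controls read 6.13, 6.26 and 6.09 and the PIK75 arrays 6.38, 6.36 and 6.26. This last probe set passed as higher (log2 0.17, limma adjusted p = 0.0316), but turned to -0.18 (limma adjusted p = 0.0359) with that centring. Its mean (6.25) lay in the range of genes the cells should lack, as did that of PDK1-a (8.75). The call of PDK1-c as higher was kept in 9 of 20 alternatives. It was lost without control replicate 1 or 5 and without PIK75 replicate 1 or 3. The mean of the 3 probe sets fell by 0.84 on the log2 scale (limma adjusted p = 9.91e-07). That mean contains PDK1-a, so its direction is no separate evidence of a fall. The size of the PDK1 change, and whether there was a fall, thus depended on the probe set.

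PDK3, the isoform with the highest catalytic activity of the family, was lower with PIK75 on every one of its 5 probe sets. Its brightest, PDK3-a, read 10.84, 10.92 and 10.61 in controls, 9.37, 9.40 and 9.49 with PIK75, and 10.49, 10.58 and 10.60 with TGX221. Each PIK75 array lay more than 1 log2 unit below every control array. The fall was 2.59-fold (log2 -1.37, SE 0.0758, limma adjusted p = 6.03e-08), and 1.15% of all genes fell as much or more.

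On PDK3-d the controls read 8.23, 8.20 and 8.05, the PIK75 arrays 7.29, 7.14 and 7.39 and the TGX221 arrays 7.80, 7.85 and 7.80. These 3 groups stood in the order control, TGX221, PIK75 with no overlap, and PIK75 lowered this probe set by 0.88 (log2, SE 0.0705, limma adjusted p = 1.12e-06). The same order without overlap was seen on PDK3-e, which reads the same reference transcript and is not independent of it, with controls at 6.94, 6.77 and 6.96, PIK75 at 6.33, 6.33 and 6.25 and TGX221 at 6.64, 6.67 and 6.72. Its log2 difference with PIK75 was -0.58 (SE 0.0604, limma adjusted p = 9.76e-06).

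The remaining PDK3 probe sets, PDK3-b and PDK3-c, had the widest control spreads of the 5 (SD 0.228 and 0.186). On PDK3-b the controls read 8.25, 8.47 and 8.02 and the PIK75 arrays 7.54, 7.74 and 7.50 (log2 -0.65, limma adjusted p = 0.000244). On PDK3-c the controls read 8.07, 8.21 and 7.84 and the PIK75 arrays 7.46, 7.53 and 7.78, so the nearest arrays of the groups lay within 0.1 of each other (log2 -0.45, limma adjusted p = 0.00264). The 5 falls of PDK3 therefore ranged from 1.37-fold to 2.59-fold.

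PDK2, the most widely expressed kinase of the family, has a pair of probe sets that pointed in opposite directions on the deposited scaling. With PIK75, PDK2-a read 8.82, 8.96 and 8.95 against 8.88, 8.67 and 8.59 in controls, and the arrays overlapped. It passed narrowly as higher (log2 0.20, SE 0.0753, limma adjusted p = 0.0472) and turned to -0.16 (limma adjusted p = 0.0984) with the hybridization spikes. The call was kept in only 5 of 23 alternatives. It was lost without control replicate 3 or 5, without PIK75 replicate 3 or 5 and without any 1 of the TGX221 arrays, which enter through the shared spread. On PDK2-b the PIK75 arrays read 8.11, 8.05 and 8.11 against 8.15, 8.16 and 8.38, all below the controls but not called (log2 -0.14, limma adjusted p = 0.16). PDK2-b passed as lower with the hybridization spikes (-0.49, limma adjusted p = 0.000145) and with cyclic loess (-0.24, limma adjusted p = 0.0332). On the deposited scaling the 95% intervals were 0.03 to 0.36 for PDK2-a and -0.32 to 0.03 for PDK2-b. On that scaling they leave room only for changes far smaller than those of PDK1 and PDK3 on their brightest probe sets.

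PDK4, the kinase induced by fasting, read low on all arrays, with means of 7.25, 6.01 and 5.18 for its 3 probe sets. PDK4-a and PDK4-b lay inside the range of the markers of other cell types, and PDK4-c below it. That range also holds the means of PDK1-a (8.75), PDP1-a (9.15) and PDP1-b (7.28). It holds PDK3-b (7.90), PDK3-c (7.82), PDK3-d (7.75) and PDK3-e (6.62) too, so it does not set PDK4 apart from genes that fell. The dimmest, PDK4-c, read 5.28, 5.42 and 5.35 with PIK75 against 5.21, 5.11 and 5.04 and passed as higher (log2 0.23, SE 0.0664, limma adjusted p = 0.0146), but turned to -0.13 (limma adjusted p = 0.161) with the hybridization spikes. The call was kept in 13 of 20 alternatives, and was lost without control replicate 5 or PIK75 replicate 3. On PDK4-a the PIK75 arrays read 7.22, 7.38 and 7.35 against 7.22, 7.13 and 7.15 in controls (log2 0.15, limma adjusted p = 0.0769). On PDK4-b they read 6.09, 5.93 and 6.16 against 6.04, 5.77 and 5.78 (log2 0.20, limma adjusted p = 0.0976). PDK4-a passed as higher without PIK75 replicate 1 (limma adjusted p = 0.0358) and as lower with the hybridization spikes (-0.20, limma adjusted p = 0.0389). PDK4-b passed as higher without control replicate 1 (limma adjusted p = 0.0285). The mean of the PDK4 probe sets passed as higher (log2 0.19, limma adjusted p = 0.0147). At this brightness a change of PDK4 could not be told from a change of background, whose part was not tested.

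PDP1, the phosphatase that opposes the kinases, was lower with PIK75 on both probe sets. On PDP1-a the controls read 9.42, 9.44 and 9.62, the PIK75 arrays 8.64, 8.44 and 8.68 and the TGX221 arrays 9.34, 9.43 and 9.31. PIK75 stood well below the other groups, which overlapped each other, and the fall was 1.87-fold (log2 -0.91, SE 0.0765, limma adjusted p = 1.78e-06). On PDP1-b the controls read 7.45, 7.55 and 7.75, the PIK75 arrays 6.84, 7.07 and 6.91 and the TGX221 arrays 7.31, 7.36 and 7.30, again with every PIK75 array lowest. The fall there was 1.57-fold (log2 -0.65, SE 0.0807, limma adjusted p = 4.71e-05). Kinase transcripts (PDK1, PDK3) and a phosphatase transcript (PDP1) were thus lower in the same cells.

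**Figure D2:**
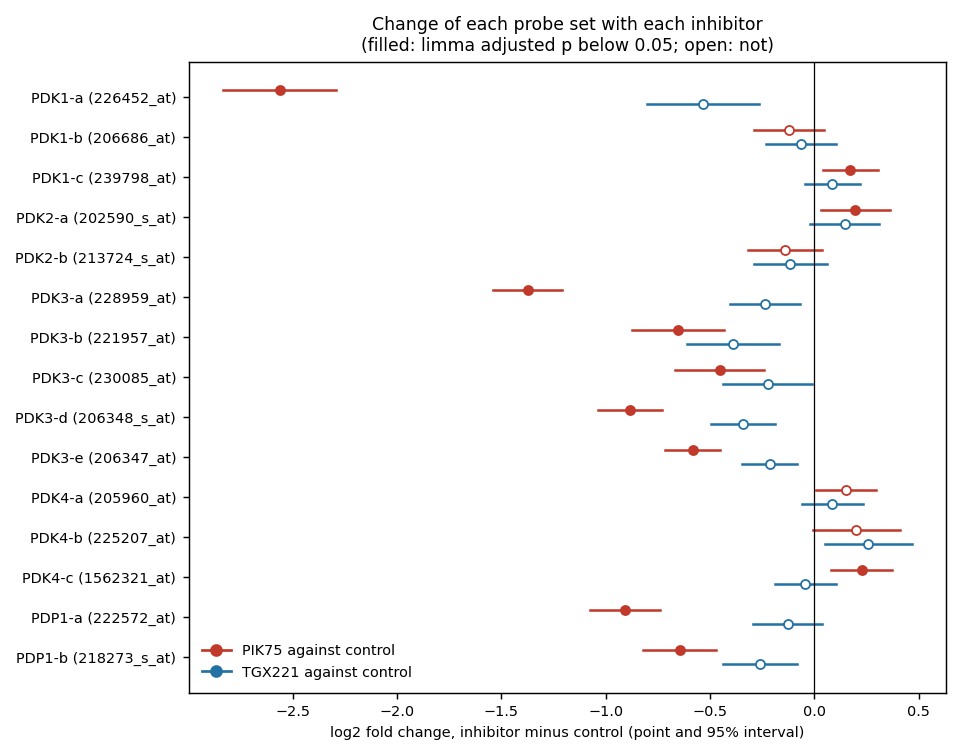
Log2 fold change with its 95% interval for each probe set, PIK75 (red) and TGX221 (blue) against the same 3 control arrays, with filled points at a limma adjusted p below 0.05. With PIK75 8 probe sets are called lower and 3 higher, the latter all under 0.25 in size and below 0 with arrays centred on hybridization spikes; with TGX221 none is called.

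The falls of the brightest probe sets were of like size without single arrays and with the actin difference, which moved with PIK75, in the model. Without PIK75 replicate 5, the array with the largest actin difference (1.13), the log2 differences were -2.52 for PDK1, -1.41 for PDK3 and -0.96 for PDP1. With the actin difference as a covariate they were -2.49, -1.40 and -1.02 (limma adjusted p = 1.51e-06, 2.81e-06 and 1.04e-05). The hybridization spikes, added after labelling, read 0.35 higher with PIK75 than in controls, and centring on them moved the median of all probe sets from 0.08 to -0.27. Relative to these spikes 12 of the 15 probe sets fell by limma, and all 15 differences were below 0. Most of the array did likewise, with 37576 of all 54613 probe sets called lower relative to these spikes. RMA makes arrays alike in distribution, so a change shared by most genes cannot be read from these values.

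**Figure D3:**
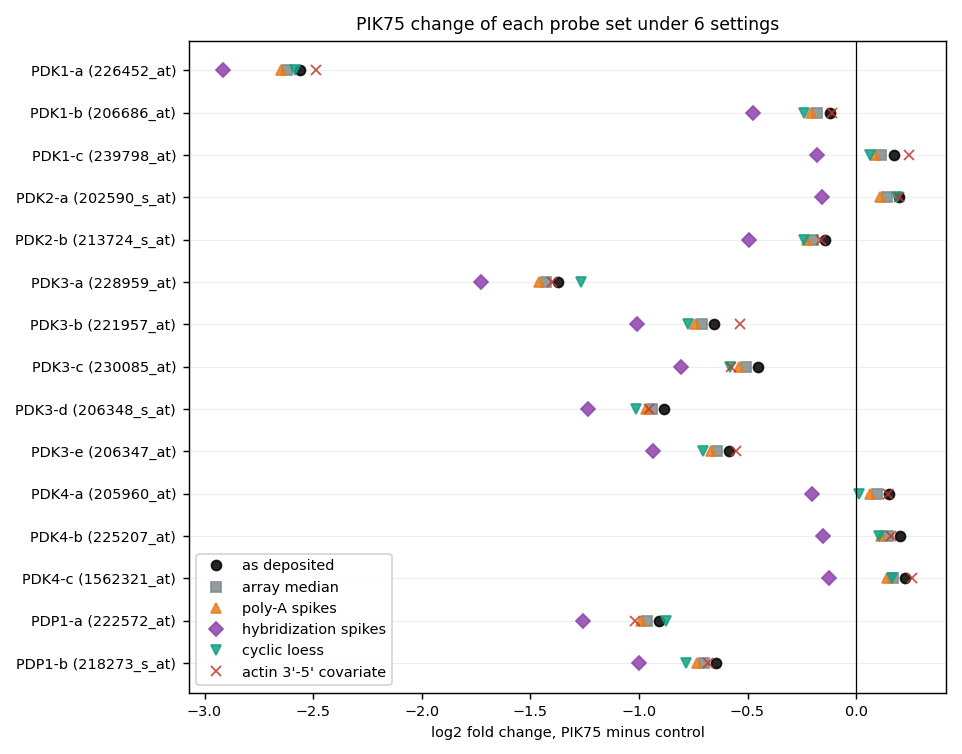
Log2 fold change of each probe set with PIK75 against control as deposited, under 4 other scalings and with the actin covariate. The hybridization spikes shift all values down by 0.35, which keeps PDK1-a (-2.91), PDK3 and PDP1 lower and takes the small positive values of PDK1-c, PDK2-a and all 3 PDK4 probe sets below 0.

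With TGX221, 0 of the 15 probe sets passed by limma, with adjusted p from 0.0668 to 0.808, where 0.269% of all probe sets were called. At an unadjusted p below 0.05 there were 8 of 15, against 16.4% of all probe sets. The 3 TGX221 arrays lay below all 3 controls on 6 probe sets (PDK1-a, PDK3-a, PDK3-b, PDK3-d, PDK3-e and PDP1-b), against 10.7% of all probe sets. No probe set had its 3 TGX221 arrays above the controls, against 10.9% overall. The median log2 difference was -0.13, beside 0.00139 over all probe sets.

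The brightest probe set of PDK1 showed the largest difference with TGX221 among these genes, 1.45-fold lower (log2 -0.53, SE 0.124, 95% interval -0.80 to -0.26, limma adjusted p = 0.0797). It passed with array weights, with the poly-A or hybridization spikes and without TGX221 replicate 3, over a range of adjusted p from 0.0126 to 0.3. For PDK3 the 5 log2 differences ran from -0.39 to -0.21, with PDK3-d nearest to the threshold (log2 -0.34, limma adjusted p = 0.0668). That probe set passed with array weights, with the hybridization spikes and without PIK75 replicate 5, which changes the shared estimate of spread. PDP1 differed by -0.13 on PDP1-a and -0.26 on PDP1-b, PDK2 by 0.15 and -0.12, and PDK4 by 0.09, 0.26 and -0.04, none of which passed. Both inhibitors were compared with the same 3 control arrays, so low or high controls enter both sets of differences.

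Set against each other, limma called 6 of the 15 probe sets lower with PIK75 than with TGX221 and 1 higher. Of all probe sets it called 16.9% lower and 20.3% higher. The doses differ, so this compares the groups and not the compounds at equal dose. PDK1-a was 4.08-fold lower with PIK75 (log2 -2.03, SE 0.124, limma adjusted p = 1.68e-07). PDK3-a was 2.20-fold lower (log2 -1.14, limma adjusted p = 3.34e-07), and PDK3-d (log2 -0.54) and PDK3-e (log2 -0.37) were lower too.

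The other PDK3 probe sets missed the threshold (PDK3-b, log2 -0.26, limma adjusted p = 0.058, and PDK3-c, log2 -0.23, limma adjusted p = 0.0864). PDK3-b passed as lower in 10 of 21 alternatives, among them leaving out control replicate 3 or 5 or PIK75 replicate 3, and PDK3-c in 5 of 21, among them leaving out PIK75 replicate 5. PDP1 was lower on PDP1-a (log2 -0.78, limma adjusted p = 7.91e-06) and PDP1-b (log2 -0.38, limma adjusted p = 0.0028). The 1 higher probe set was the dim PDK4-c (log2 0.27, limma adjusted p = 0.00746), which went to -0.017 with the hybridization spikes. For PDK1 and PDK3 on their brightest probe sets, and for PDP1, the order of group means was control, TGX221, PIK75, and the step from control to TGX221 did not pass the test.

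Among the genes that make up the complex itself, 3 of 6 fell with PIK75 and 0 rose by limma (PDPR, the regulatory subunit of the phosphatase, is counted here), and 1, PDHX, rose without PIK75 replicate 5. The other 3 had an adjusted p of 0.0742 to 0.45. Over all genes, each read by its brightest probe set, 24.7% were called lower and 33.3% higher. The median log2 difference was -0.21, beside 0.09 over all genes. PDHB, the beta subunit of the decarboxylase that the kinases act on, read 11.42, 11.40 and 11.56 in controls, 9.86, 9.74 and 10.00 with PIK75 and 11.43, 11.42 and 11.47 with TGX221. PIK75 arrays lay apart and the others overlapped. PDHB fell 3.01-fold (log2 -1.59, SE 0.0699, limma adjusted p = 1.34e-08), and its second probe set fell alike (log2 -1.59).

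DLAT, the acetyltransferase core to which the kinases dock, fell (log2 -0.56, SE 0.0755, limma adjusted p = 9.1e-05), with each of its other probe sets lower too (log2 -0.58 and -0.65). DLD, the dihydrolipoamide dehydrogenase shared with other complexes, fell by 0.30 (log2, limma adjusted p = 0.00388), but did not pass with the actin covariate (limma adjusted p = 0.0877). PDHA1, the alpha subunit that carries the phosphorylated serines, had a value of -0.13 on its brightest probe set (limma adjusted p = 0.0742), while dimmer ones fell (log2 -0.19 and -0.64). PDHX, which anchors the dehydrogenase, and PDPR had values of 0.08 and 0.06, which became -0.27 and -0.29 with the hybridization spikes. With TGX221 none of the 6 genes passed by limma, and their log2 differences ran from -0.10 to 0.07.

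**Figure D4:**
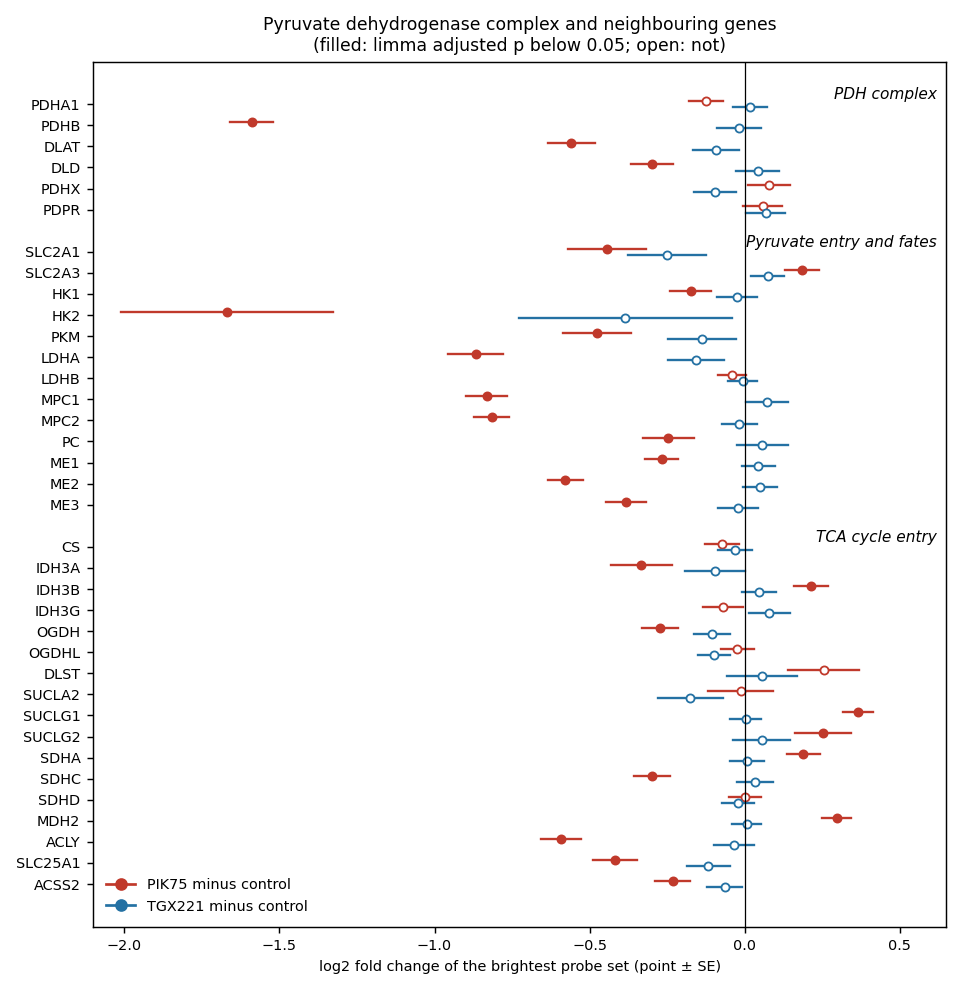
Log2 fold change and SE of the brightest probe set of each gene of the complex, of pyruvate entry and fates and of citric acid cycle entry, for PIK75 (red) and TGX221 (blue) minus control, with filled points at a limma adjusted p below 0.05. PDHB (-1.59), HK2 (-1.67), LDHA (-0.87), MPC1 (-0.83) and MPC2 (-0.82) lie far left with PIK75, while cycle genes scatter around 0 and no TGX221 point is filled. The HK2 point has a wide control spread (SD 0.84). Dimmer HK2 probe sets, not drawn, had log2 differences of -0.010 and -0.086 (limma adjusted p = 0.903 and 0.324). The filled PIK75 points right of 0 reach 0.37, and with hybridization spikes none of these lists had a gene called higher.

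Pyruvate entry and fates, a list of genes that make, carry or use pyruvate, had 11 of 13 measured genes lower and 1 higher with PIK75 (median -0.44), where 24.7% of all genes were lower and 33.3% higher. The 1 higher gene, the glucose carrier SLC2A3 (log2 0.19, limma adjusted p = 0.0145), was not called without control replicate 1 or with the hybridization spikes. MPC2 (log2 -0.82, limma adjusted p = 3.72e-07) and MPC1 (log2 -0.83, limma adjusted p = 1.16e-06) encode the carrier that brings pyruvate into the mitochondrion. A dimmer probe set of MPC1 rose (log2 0.34), and the mean of the MPC1 probe sets fell by 0.25. ME2, a mitochondrial malic enzyme, fell (log2 -0.58), as did LDHA, the lactate dehydrogenase subunit that reduces pyruvate (log2 -0.87, SE 0.0896). None of the 13 passed with TGX221 by limma. The citric acid cycle list had 6 of 17 genes lower and 5 higher (median -0.02), and its share of higher genes was near that of all genes. ACLY, which makes cytosolic acetyl-CoA from citrate, fell (log2 -0.59), as did the citrate carrier SLC25A1 (log2 -0.42). SUCLG1, a succinyl-CoA ligase subunit, and MDH2, a malate dehydrogenase, rose (log2 0.37 and 0.30), but were 0.013 and -0.055 with the hybridization spikes.

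Of 19 measured genes known to regulate the PDK genes or their regulators, 5 fell and 4 rose with PIK75 (median -0.01). Beside the 24.7% lower and 33.3% higher of all genes, the share that fell was near the background and the share that rose below it. EGLN1, the oxygen sensor that marks HIF1 for decay, fell (log2 -1.01, SE 0.108, limma adjusted p = 1.31e-05), although 1 of its 4 probe sets rose (log2 0.34). FOXO3, a forkhead factor restrained by PI3K signalling, fell (log2 -0.61, limma adjusted p = 3.77e-05). ARNT, the partner of HIF1A, fell on its brightest probe set (log2 -0.39), but 2 others rose and the mean of its probe sets was 0.014. MYC rose (log2 0.49, limma adjusted p = 0.000163), but missed the threshold when centred on the hybridization spikes (0.13, limma adjusted p = 0.155). HIF1A and FOXO1 were picked after their values were seen. HIF1A was lower by 0.18 (log2, limma adjusted p = 0.0353), a call that 9 of 23 alternatives ended, among them leaving out control replicate 5, PIK75 replicate 3 or PIK75 replicate 5. FOXO1 was higher (log2 0.46, limma adjusted p = 0.000179), a call lost relative to those spikes (0.11, limma adjusted p = 0.263). None of the 19 passed with TGX221 by limma, where 0.324% of all genes did.

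PDPK1, the PI3K pathway kinase that shares a nickname with PDK1, went the other way. Its brightest probe set read 11.18, 11.21 and 11.23 in controls, 11.50, 11.49 and 11.58 with PIK75 and 11.09, 11.12 and 11.21 with TGX221. PIK75 arrays lay above all others (log2 0.32, SE 0.0531, limma adjusted p = 0.000462), but the value was -0.033 with the hybridization spikes.

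The genes whose values over the 9 arrays were most like those of PDK1-a were sought among 718 genes with an SD of at least 0.5. The likest were PGM1, a phosphoglucomutase that links glycogen and glycolysis (Pearson r = 0.998), PNMA2, a neuronal antigen (0.996), KCTD12 (0.996), FRMD4A (0.995) and CCDC126 (0.995). PGM1 read 10.04, 10.22 and 9.89 in controls, 8.24, 8.36 and 8.13 with PIK75 and 9.65, 9.76 and 9.65 with TGX221. As with PDK1, control replicate 3 was the highest array and the TGX221 arrays lay just below the controls. Of the genes described here, PDK3-a was nearest to PDK1 at r = 0.991, with 18 of the 718 above it, and PDP1-a had r = 0.946. These values mostly read the difference between the groups, which 9 arrays in 3 groups share, and are a description with no test.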

How the data were processed

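Per the submitters' processing notes, the deposited log2 values were made by the authors with RMA, a method that corrects background, quantile-normalizes arrays and summarises probes per probe set, and no version is given. The series matrix holds 1 value per probe set and array, with 0 unmapped sample columns, and no raw files were used. Labelling used 2 ug of total RNA per the labels' protocols. Symbols came from the platform annotation, updated by Entrez identifier: 41091 probe sets carry 1 symbol, 1801 several and 11721 none. The 62 control probe sets were left out of the tests.

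Each of 54613 probe sets was fitted with limma 3.58.1 (lmFit, eBayes, R 4.3.3) to the 9 arrays, with a mean for each of the 3 groups and nothing else in the model (6 residual degrees of freedom, prior 5.63) and no filter on dim probe sets, since every probe set is reported. P-values were adjusted by Benjamini and Hochberg over all of them, with a call below 0.05. The fit was tested on simulated data. An exact test of 3 against 3 cannot go below 0.1. The number of arrays limits the precision.

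List genes are read by their brightest probe set (67 of 77 entries measured, the others not analysed here). Named were all members, all genes of the complex, up to 4 called genes per list with the smallest p, PDPK1 and the 5 genes likest to PDK1. Members and lists were chosen with earlier results of these data known. Alternatives were other scalings, probe set summaries, filters, spreads, thresholds, a block and leaving out arrays. The actin covariate was added after seeing the data. Figures used matplotlib 3.10.9.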

Additional observations from a re-analysis of the deposited data

How the results depend on the processing

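Of 957 refits of single probe sets of the PDK and PDP genes over 23 alternatives, 862 kept direction and side of the threshold. The falls of PDK1-a (-2.91 to -2.47), PDK3-a (-1.73 to -1.27) and PDP1-a with PIK75 passed in all 23 alternatives, of which the mean of probe sets per gene gave -0.84 for PDK1 and -0.79 for PDK3, and that of PDP1-b passed in the 20 that could be run on it. The cause of the changes below was not tested, beyond the smaller number of probe sets in the fits on 1 value per gene.

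For PIK75 against control, the count of 3 higher was 1 with the brightest or the mean probe set per gene, array medians, without dimmer probe sets and in the fit of 2 groups. It was 0 with poly-A spikes, hybridization spikes, cyclic loess, adjusted p below 0.01 and 1.5-fold, and 0 to 3 over arrays left out (0 without control replicate 5 or PIK75 replicate 3). The count of 8 lower was 3 for 1 value per gene, and 6 without dimmer probe sets and at 1.5-fold. It was 10 with cyclic loess, 12 with hybridization spikes and 8 without any single array. Of all 54613 probe sets, 11908 were lower with cyclic loess and 37576 with hybridization spikes. Reversed with hybridization spikes were PDK1-c (-0.18), PDK2-a (-0.16) and PDK4-a (-0.20), PDK4-b (-0.15) and PDK4-c (-0.13). So were PDHX (-0.27), PDPR (-0.29), MDH2 (-0.055), BCKDHA (-0.017) and PDPK1 (-0.033). PDHX (-0.0071) and PDPR (-0.029) also reversed with poly-A spikes, PDPR with cyclic loess (-0.014) and ARNT for the mean of probe sets (0.014).

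For TGX221 against control, 0 lower became 1 with poly-A spikes, 4 with hybridization spikes, 3 with array weights and 0 to 1 over arrays left out (1 without PIK75 replicate 5 or TGX221 replicate 3). Of all 54613 probe sets, 87 were lower with poly-A spikes, 801 with hybridization spikes and 896 with array weights. PDK4-c was 0.016 with poly-A spikes, and -0.085 to 0.011 over arrays left out.

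For PIK75 against TGX221, the count of 1 higher was 0 with 1 value per gene, poly-A spikes, hybridization spikes, without dimmer probe sets and at 1.5-fold. The count of 6 lower was 3 with 1 value per gene and at 1.5-fold, and 14 with hybridization spikes, where 33617 of all 54613 probe sets were lower. With poly-A spikes PDK1-c was -0.058, PDK2-a -0.0942 and PDK4-a -0.080. With hybridization spikes they were -0.20, -0.24 and -0.22, and PDK4-c -0.017. PDK4-a was -0.0363 with cyclic loess. Over arrays left out PDK1-b ran from -0.11 to 0.019, PDK2-b from -0.10 to 0.042 and PDK4-b from -0.11 to 0.030.

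Replicate numbers are shared in part only, and deviations of same-numbered arrays correlated at -0.07 to 0.22. Not every array correlated best with its own number. On PDK1-a replicate 3 was the highest array of every group, and on PDP1-a it was not. With 3 arrays a group, these values cannot show whether the numbers pair the arrays. With the replicate block, 2 probe sets were higher and 8 lower with PIK75 against control, and PDK2-b was 0.056 against TGX221.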

Other observations

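Enzymes related to the PDK family and genes that supply the cofactors of the complex were also looked at. With PIK75, 3 of 12 measured genes fell and 4 rose by limma, against 24.7% of all genes lower and 33.3% higher (median 0.12, beside 0.09 over all genes). The 4 rises were 2 without PIK75 replicate 3 and 0 with the hybridization spikes. NFU1, which helps build the iron-sulfur cluster needed to make lipoic acid, read 9.97, 9.92 and 10.02 in controls, 8.40, 8.36 and 8.37 with PIK75 and 9.94, 9.94 and 9.84 with TGX221. Its PIK75 arrays lay together, far below the rest, and it fell 3.02-fold (log2 -1.59, SE 0.0519, limma adjusted p = 2.48e-09). Lipoic acid is the cofactor bound to DLAT.

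SLC19A2, a carrier of thiamine, whose active form is the cofactor of the decarboxylase, fell (log2 -0.66, limma adjusted p = 2.76e-05). The branched-chain ketoacid dehydrogenase, a sister complex with its own kinase, split between its decarboxylase subunits. BCKDHB fell (log2 -0.55, limma adjusted p = 8.38e-06), and BCKDHA rose (log2 0.34, limma adjusted p = 0.000311) but was -0.017 with the hybridization spikes. None of the 12 passed with TGX221 by limma.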
